A study of Mus musculus with 4 samples.

Results

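The 35 genes described here encode machinery of the cell division cycle, and they were followed in the kidneys of adult mice. They were chosen by name, as rows of the deposited expression table whose gene symbol matched, and all 35 were found among the 54232 genes of that table. By role, 9 act at the start of DNA synthesis or during it (replication genes). The other 26 act from the G2 phase to the end of mitosis (mitosis genes), among them Ccna2, which acts in S phase as well. The study compared wild-type mice (WT) with mice that carry 1 LacZ allele of Tshz3, a teashirt-family zinc-finger transcription factor gene, written Tshz3+/LacZ in the labels (HET). Kidneys were taken at 60 days of age, and polyadenylated RNA was sequenced in 2 libraries per genotype. Every library is a pool, made from 3 kidneys per group in equal shares according to the labels. No label says whether the 2 pools of each genotype share kidneys, so p-values measure the spread between pools, which may be technical in part. A whole kidney pool also cannot tell more dividing cells from more of these transcripts per dividing cell. The labels and notes at hand name neither the sex nor the strain of the mice, nor how the LacZ allele was built.

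A cell that enters the division cycle first switches on genes for DNA synthesis, many of them targets of E2F transcription factors, and later a further wave of genes for chromosome condensation, spindle assembly and cell separation. The retinoblastoma family and the MuvB complex hold both waves down in resting cells, while B-MYB and FOXM1 drive the later one. NF-Y binds CCAAT boxes in many promoters of the late wave, and a short element called the cell cycle genes homology region (CHR) recruits MuvB complexes there. Most epithelial cells of the adult kidney are at rest and divide rarely, more often after tubular injury, so transcripts of this machinery come from a small share of cells.

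The promoters of both groups held these elements in different shares. RefSeq promoter windows of 300 bases, 250 before and 50 after the annotated start (build GRCm38.p6), were found for 30 of the 35 genes, 8 replication and 22 mitosis genes. Each window was searched on both strands for CCAAT, for the CHR core TTTGAA and for the E2F-type site TTTNNCGC, in which N is any base, counting overlapping matches separately. The CHR core was present in 17 of 22 mitosis genes and in 1 of 8 replication genes (Mcm2), against 17.9% of all 32851 windows in the table. The E2F-type site was present in 4 of 8 replication genes (Mcm3, Mcm5, Mcm6 and Tyms), in 2 of 22 mitosis genes (Cdk1 and Ncapg) and in 5.17% of all windows. CCAAT was common to both groups, with 20 of 22 mitosis and 6 of 8 replication genes, against 37.4% of all windows. At least 2 CCAAT boxes together with a CHR core occurred in 11 of 22 mitosis genes, in 0 of 8 replication genes and in 2.09% of all windows. A match is a run of letters and not a measured binding site. The E2f1 window (chr2:154569377-154569676, minus strand) held no match. It lies wholly inside the gene as annotated in the expression table, whose 5′ end is at 154569892. Its lack of matches therefore does not describe the sequence upstream of that end, though E2f1 is counted among the 8. The Kif4 window, from 100625815 on the plus strand, also lies inside its annotated gene, which starts at 100625737. The windows of a pair of genes from each group are printed 5′ to 3′ because they show this contrast, with every match to a searched motif in capitals. Ccnb2 (chr9:70421505-70421804, minus strand) has CCAAT boxes that begin at positions -87, -54 and -21 from the start, and CHR cores that begin at -167 and 5. Mki67 (chr7:135716330-135716629, minus strand) has 3 CCAAT boxes, 1 of them on the other strand as ATTGG, followed by 2 CHR cores. Mcm5 (chr8:75109259-75109558, plus strand) and Mcm6 (chr1:128359656-128359955, minus strand) have CCAAT boxes and E2F-type sites and no CHR core.
Ccnb2: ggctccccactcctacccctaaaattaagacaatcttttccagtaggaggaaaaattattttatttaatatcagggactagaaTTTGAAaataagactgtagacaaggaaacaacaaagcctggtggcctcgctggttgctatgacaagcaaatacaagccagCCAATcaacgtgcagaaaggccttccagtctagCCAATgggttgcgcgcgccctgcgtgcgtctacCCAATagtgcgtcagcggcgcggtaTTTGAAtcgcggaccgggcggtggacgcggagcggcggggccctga
Mki67: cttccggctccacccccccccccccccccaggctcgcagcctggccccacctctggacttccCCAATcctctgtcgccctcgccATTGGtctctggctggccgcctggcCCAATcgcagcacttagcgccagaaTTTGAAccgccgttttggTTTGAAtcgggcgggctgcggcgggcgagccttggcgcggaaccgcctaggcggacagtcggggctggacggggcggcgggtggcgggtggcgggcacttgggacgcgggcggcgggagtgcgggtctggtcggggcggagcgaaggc
Mcm5: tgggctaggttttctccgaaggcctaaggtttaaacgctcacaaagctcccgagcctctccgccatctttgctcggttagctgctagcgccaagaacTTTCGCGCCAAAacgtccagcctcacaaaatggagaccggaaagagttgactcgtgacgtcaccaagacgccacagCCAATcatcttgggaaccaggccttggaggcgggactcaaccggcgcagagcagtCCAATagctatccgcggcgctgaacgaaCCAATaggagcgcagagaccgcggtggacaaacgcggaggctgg
Mcm6: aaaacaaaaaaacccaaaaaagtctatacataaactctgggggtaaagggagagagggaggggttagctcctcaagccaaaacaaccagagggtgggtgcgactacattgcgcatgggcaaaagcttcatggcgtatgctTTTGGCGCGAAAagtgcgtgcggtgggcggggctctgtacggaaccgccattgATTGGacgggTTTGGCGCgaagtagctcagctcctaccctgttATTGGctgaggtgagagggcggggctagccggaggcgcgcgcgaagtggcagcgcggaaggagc

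**Figure D1:**
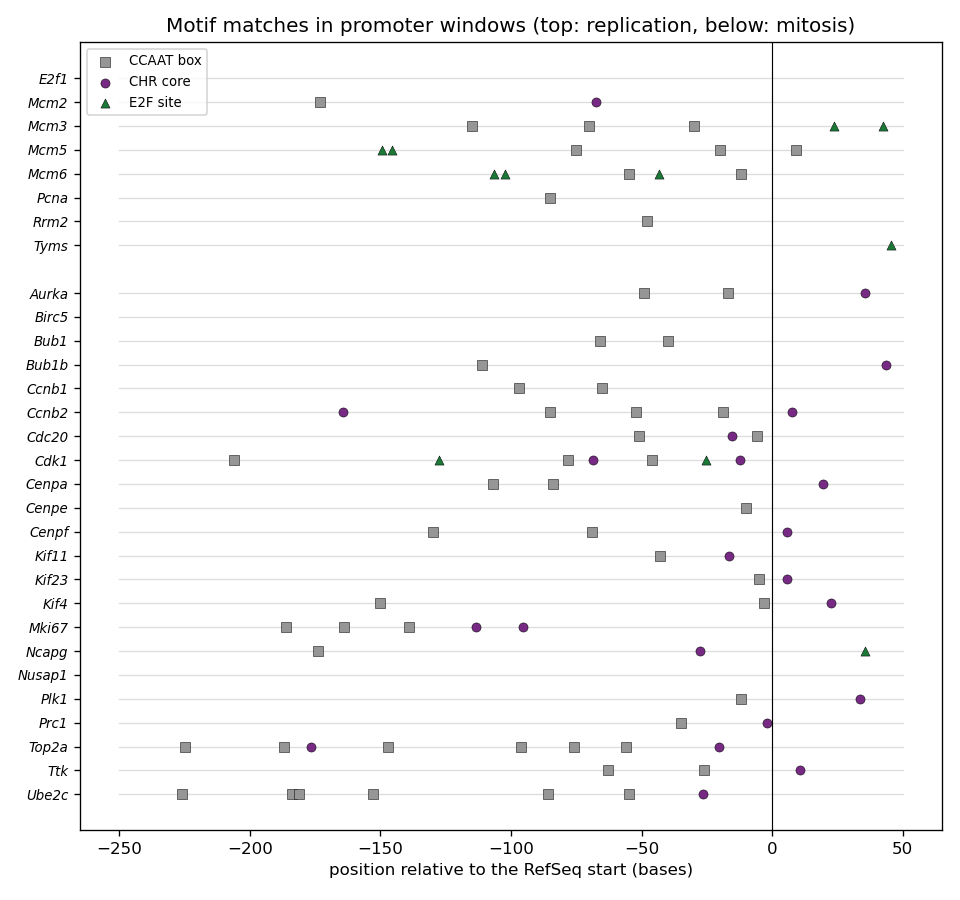
Motif matches in the promoter windows of 30 cell cycle genes. Horizontal axis: bases from the RefSeq start. Grey squares are CCAAT boxes, purple circles CHR cores (TTTGAA) and green triangles E2F-type sites (TTTNNCGC), on either strand. For Prc1, which has 2 windows, the upstream window is drawn. The windows of E2f1 and Kif4 lie inside the genes as annotated in the expression table. Purple circles appear in 17 of 22 mitosis genes and 1 of 8 replication genes.

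The libraries held between 62631750 and 70792042 reads, recovered from the deposited TPM (a transcript abundance corrected for gene length and depth). Levels are given below as TPM scaled between libraries. All 11 markers of nephron segments checked were present, among them Slc34a1 of the proximal tubule at 2692, 2093, 2005 and 2003 TPM in WT replicates 1 and 2 and HET replicates 1 and 2. The Tshz3 transcript was no lower in libraries with the HET label, at 0.653 and 0.723 TPM in the WT pools, against 0.833 and 0.760 TPM in HET, so its level does not check the labels and all directions are those of the libraries as labelled. WT replicate 1 stood apart for the genes described here. It held the lowest level of 32 of the 35 genes, and of 33.7% of the 22356 genes tested. Medians of the gene lists, and the fold changes of several members, are therefore also given without that library. Sex-linked transcripts differed between pools of the same genotype too: Xist, a transcript of the inactive X, was at 18.1 and 39.7 TPM in the WT pools, against 60.5 and 57.7 TPM in HET, and the Y-linked Ddx3y at 21.1 and 16.2 TPM and 4.02 and 17.0 TPM.

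Cell cycle transcripts were scarce in all 4 libraries, and replication genes were the more abundant group. The mean level over the libraries ran from 0.233 TPM (Ccnb1) to 11.4 TPM (Mcm6), with a median of 1.32 TPM. It was 3.77 TPM at the median of the replication genes, none of which was under 1 TPM, and 1.06 TPM at the median of the mitosis genes, of which 11 of 26 were under 1 TPM. Behind these levels stood between 15 reads (Ccnb1 in WT replicate 1) and 1886 reads (Mcm6 in HET replicate 1) per library. All 35 genes passed the filter on low values, and none passed it through 1 genotype alone. Exons of 11 members overlap those of another annotated gene, mostly on the opposite strand, and without a stated strand setting reads of such pairs cannot be told apart. Among them are Kif20a, which overlaps Cdc23, and Ccna2, which overlaps Exosc9. These were the most abundant mitosis genes, at means of 4.93 and 4.05 TPM.

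**Figure D2:**
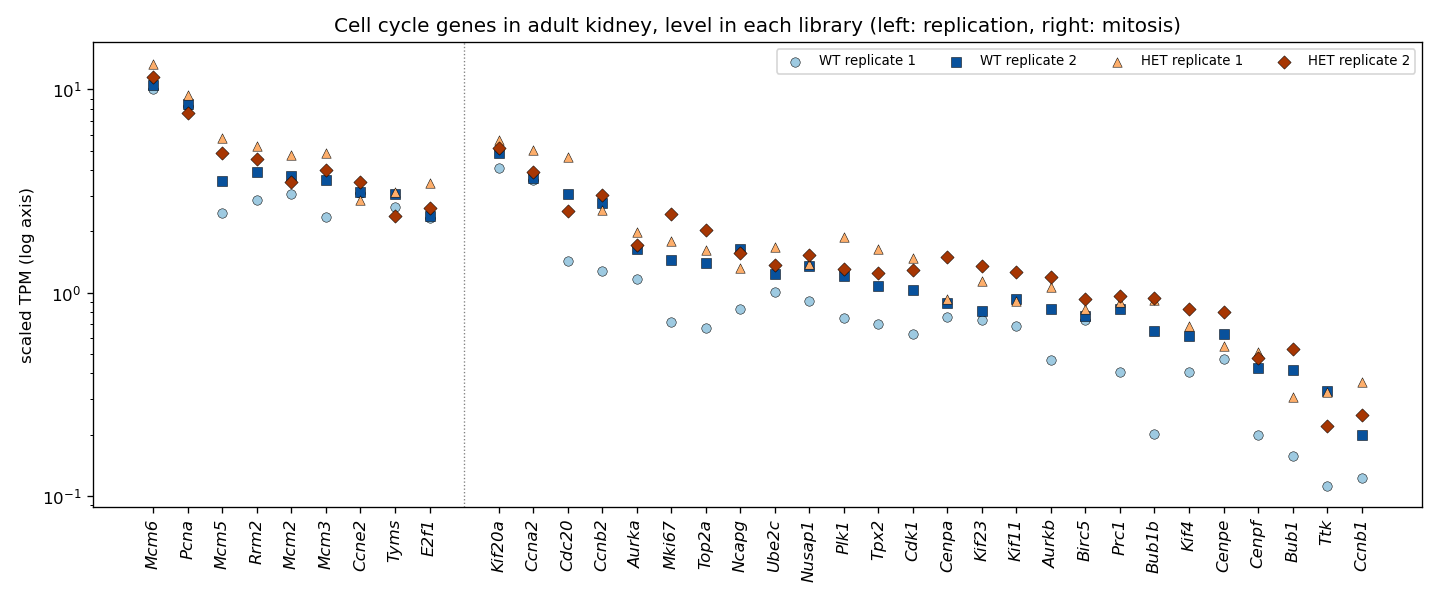
Level of each of the 35 cell cycle genes in each library, as scaled TPM on a log axis, ordered by mean level within replication genes (left) and mitosis genes (right). Each point is 1 library. The pale blue circles of WT replicate 1 are the lowest point for 32 of 35 genes.

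Between the genotypes, 34 of 35 genes had a higher mean on the log scale in HET, and 0 passed the test. The threshold was an adjusted p (Benjamini-Hochberg) below 0.1 in limma, fitted over all 22356 tested genes on log2(TPM + 0.5), a scale on which differences of scarce transcripts are damped. This call was made for 2 genes in all, 0.00895% of those tested. Adjusted p-values of the members ran from 0.622 to 0.972. Unadjusted p-values were under 0.05 for 5 of the 35 genes (Mcm5, Rrm2, Mki67, Bub1b and Kif23), all on the side of a higher level in HET, and for 3.81% of all genes on that side. limma-voom on the recovered reads called 0 members as well, with 10 at an unadjusted p under 0.05, beside 7.92% of all tested genes. In 24 of 35 genes the HET libraries both exceeded both WT libraries, which was so for 21.8% of all tested genes. The median log2 fold change was 0.32, beside 0.0067 over all tested genes. Without WT replicate 1 it was 0.18, and without WT replicate 2 it was 0.48. WT replicate 2 was above WT replicate 1 in all 35 genes, so a comparison with WT replicate 2 alone returns the same 24 by construction. Of all tested genes, 29.9% were above WT replicate 2 in both HET libraries.

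**Figure D3:**
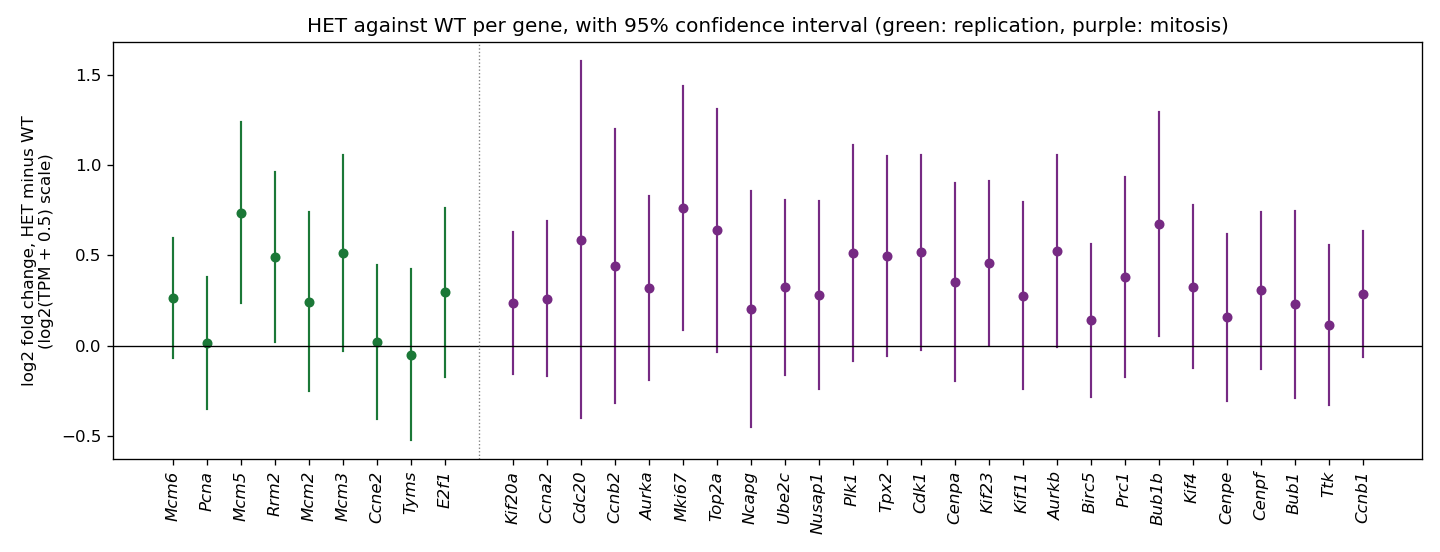
Log2 fold change of HET minus WT on the log2(TPM + 0.5) scale for each cell cycle gene (points) with its 95% confidence interval from limma (bars), replication genes in green and mitosis genes in purple. Of 35 points 34 lie above 0, and the interval excludes 0 for 5 genes before adjustment over all genes.

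Replication genes were split between members that separated the genotypes and members that did not. Mcm2, Mcm3, Mcm5 and Mcm6 encode subunits of the ring-shaped helicase that opens DNA at origins. Mcm5 was at 2.47 and 3.56 TPM in the WT pools, against 5.75 and 4.85 TPM in HET, with a log2 fold change of 0.74 ± 0.21 (SE) and an unadjusted p of 0.0111, the smallest among the 35 genes (limma adjusted p = 0.622). Both HET values lay above both WT values. Mcm3 had the same order of libraries, at 2.37 and 3.60 TPM in the WT pools, against 4.84 and 3.99 TPM in HET, and so did Mcm6, at 10.04 and 10.5 TPM and 13.4 and 11.5 TPM. Mcm2 did not separate the genotypes, since HET replicate 2 at 3.51 TPM lay below WT replicate 2 at 3.76 TPM.

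Genes of nucleotide supply and of the sliding clamp were not ordered alike. Rrm2, the regulated subunit of ribonucleotide reductase, was at 2.86 and 3.90 TPM in the WT pools, against 5.27 and 4.57 TPM in HET, with no overlap between the genotypes and a log2 fold change of 0.49 ± 0.20 SE (adjusted p in limma = 0.622). Without WT replicate 1 its log2 fold change was 0.30. Tyms, the thymidylate synthase gene, was at 2.65 and 3.05 TPM in the WT pools, against 3.13 and 2.38 TPM in HET. It was the only member with a negative log2 fold change, -0.048, which was 0.17 without scaling of the TPM. Pcna, which encodes the clamp that holds DNA polymerases on the template, was at 8.31 and 8.49 TPM in the WT pools, against 9.43 and 7.67 TPM in HET, so that the HET libraries lay on either side of WT. Its log2 fold change of 0.017 had a 95% confidence interval from -0.35 to 0.38.

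The early regulators gave a similar mixture. E2f1, a transcription factor of the first wave, was at 2.33 and 2.39 TPM in the WT pools, against 3.45 and 2.62 TPM in HET, higher in both HET libraries. Ccne2, a cyclin that drives entry into S phase, was at 3.09 and 3.13 TPM in the WT pools, against 2.86 and 3.50 TPM in HET, and the genotypes overlapped. In 5 of the 9 replication genes both HET libraries were above both WT libraries, beside 21.8% of all tested genes. Over the 9 genes, 8 had a positive log2 fold change and the median log2 fold change was 0.27. That median was 0.15 without HET replicate 1, 0.44 without HET replicate 2 and 0.24 without WT replicate 1.

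Mitosis genes were lowest in WT replicate 1 without exception, 26 of 26, and all 26 had a positive log2 fold change, with a median of 0.32. In 19 of them the HET libraries both exceeded both WT libraries, beside 21.8% of all tested genes. Without WT replicate 1 the median was 0.16, and without WT replicate 2 it was 0.50. Mki67, which encodes the Ki-67 protein that coats mitotic chromosomes, was at 0.716 and 1.44 TPM in the WT pools, against 1.80 and 2.45 TPM in HET, from 210, 466, 545 and 861 reads. Its log2 fold change of 0.76 ± 0.28 (SE) was the largest of the 35 on this scale (limma adjusted p = 0.622), and it was 0.42 without WT replicate 1. Top2a, the topoisomerase that untangles sister chromatids, had the same order, at 0.666 and 1.403 TPM in the WT pools, against 1.62 and 2.04 TPM in HET.

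The cyclins and their kinase were ordered alike in part. Cdk1, the kinase that starts mitosis, was at 0.625 and 1.03 TPM in the WT pools, against 1.48 and 1.29 TPM in HET, higher in both HET libraries. Its partner Ccnb1 was at 0.122 and 0.199 TPM in the WT pools, against 0.362 and 0.251 TPM in HET, from as few as 15, 27, 46 and 37 reads. Ccnb2, the other B-type cyclin, was at 1.28 and 2.76 TPM in the WT pools, against 2.54 and 3.02 TPM in HET, so that WT replicate 2 lay between the HET libraries. Ccna2, a cyclin of S and G2 phase, was at 3.57 and 3.68 TPM in the WT pools, against 5.02 and 3.92 TPM in HET, with both HET libraries above WT.

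Among genes of the spindle checkpoint, which delays separation of the chromatids until all are attached, Bub1b had the largest ratio of all 35. It was at 0.200 and 0.647 TPM in the WT pools, against 0.916 and 0.943 TPM in HET, so that the mean in HET was 2.19 times that in WT and 1.44 times WT replicate 2. Its log2 fold change was 0.67 ± 0.26 (SE; adjusted p in limma = 0.622), and 0.32 without WT replicate 1. Bub1, a kinase of the same checkpoint, was at 0.157 and 0.414 TPM in the WT pools, against 0.305 and 0.525 TPM in HET. The kinase gene Ttk was at 0.112 and 0.328 TPM in the WT pools, against 0.324 and 0.221 TPM in HET. In both, WT replicate 2 was within or above the range of the HET libraries, and without WT replicate 1 the log2 fold changes were -0.0088 and -0.10.

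Of the other mitotic kinases, Plk1, Aurka and Aurkb separated the genotypes. Plk1, the polo-like kinase, was at 0.748 and 1.20 TPM in the WT pools, against 1.89 and 1.31 TPM in HET. Aurka, which acts at the spindle poles, was at 1.16 and 1.63 TPM in the WT pools, against 1.99 and 1.72 TPM in HET, and Aurkb, the kinase of the chromosomal passenger complex, at 0.465 and 0.833 TPM and 1.07 and 1.19 TPM. Birc5, which encodes survivin of the same complex, was at 0.736 and 0.767 TPM in the WT pools, against 0.829 and 0.933 TPM in HET. Its WT replicate 1 value was close to that of WT replicate 2, unlike that of Aurkb.

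Centromere genes did not all separate the genotypes. Cenpa, the histone variant that marks centromeres, was at 0.761 and 0.891 TPM in the WT pools, against 0.935 and 1.49 TPM in HET. Cenpf, a kinetochore protein, was at 0.200 and 0.423 TPM in the WT pools, against 0.512 and 0.476 TPM in HET, and Cenpe, a kinetochore motor, at 0.469 and 0.624 TPM and 0.543 and 0.799 TPM. Cenpa and Cenpf separated the genotypes and Cenpe did not.

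Among motors and spindle proteins, Kif23, a kinesin of the central spindle, was at 0.729 and 0.810 TPM in the WT pools, against 1.14 and 1.35 TPM in HET. Its log2 fold change of 0.46 ± 0.19 (SE; adjusted p in limma = 0.622) depended little on WT replicate 1, being 0.41 without it. Kif4, a chromosome-bound kinesin, was at 0.404 and 0.614 TPM in the WT pools, against 0.686 and 0.835 TPM in HET, and Kif20a, which acts in cell separation, at 4.10 and 4.88 TPM and 5.62 and 5.12 TPM. Kif11, the motor that pushes spindle poles apart, overlapped between genotypes, at 0.683 and 0.928 TPM and 0.909 and 1.26 TPM. The spindle assembly factor gene Tpx2 was at 0.696 and 1.08 TPM in the WT pools, against 1.65 and 1.25 TPM in HET. The further spindle genes Nusap1 and Prc1, which bundle microtubules, were also higher in both HET libraries, with ratios of the HET mean to the WT mean of 1.296 and 1.504.

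Genes of the anaphase-promoting complex and of condensin differed in where WT replicate 2 lay relative to the HET libraries. Ube2c, the ubiquitin-conjugating enzyme of the anaphase-promoting complex, was at 1.00 and 1.23 TPM in the WT pools, against 1.69 and 1.36 TPM in HET. Cdc20, an activator of that complex, was at 1.43 and 3.04 TPM in the WT pools, against 4.64 and 2.51 TPM in HET, the widest spread between HET libraries of all 35. Ncapg, a condensin subunit, was at 0.830 and 1.64 TPM in the WT pools, against 1.32 and 1.57 TPM in HET, where WT replicate 2 was the highest library. Without WT replicate 1 its log2 fold change was -0.14.

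How replication and mitosis genes compared between the genotypes depended on the scale, and within WT the mitosis genes had the larger step. On the log2(TPM + 0.5) scale the replication median minus the mitosis median of the fold change was -0.059, smaller than the spread of that quantity between replicates (SD 0.18), and it changed sign in 5 of the 15 alternatives. This difference was larger in size with limma-voom (-0.34), with a pseudocount of 0.1 TPM (-0.25) and with a filter of 1 TPM in 2 libraries (-0.19). It was also larger without WT replicate 2 or without HET replicate 1 (-0.19 in each). The SD was computed for the log2(TPM + 0.5) scale with all members and libraries, so it cannot judge these alternatives, whose own spread was not computed. As a ratio of the HET mean to the WT mean, which is not damped at low levels, the median was 1.22 for replication and 1.48 for mitosis genes. Against WT replicate 2 alone the medians were 1.19 and 1.20. The ratio of WT replicate 2 to WT replicate 1 had a median of 1.15 for replication genes (range 1.01 to 1.52) and 1.62 for mitosis genes (1.03 to 3.23). For mitosis genes the step within WT was thus larger than the step from WT replicate 2 to HET. The 95% interval of the within-WT ratio, exact and for counting error only, lay above 1 for 5 of 9 replication and 20 of 26 mitosis genes. These intervals compare 2 libraries and not conditions.

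Within HET, in 8 of 9 replication genes HET replicate 1 was above HET replicate 2, with the interval of the ratio below 1 in all 8, and Ccne2 was the exception with a ratio of 1.22 (1.054 to 1.424). Among mitosis genes 11 of 26 were higher in HET replicate 1 and 15 in HET replicate 2, with 4 and 8 intervals clear of 1. Over all tested genes HET replicate 1 was above HET replicate 2 in 50.9%. The median ratio of HET replicate 2 to replicate 1 was 0.825 for replication and 1.09 for mitosis genes. In the wider lists both medians of HET replicate 2 minus HET replicate 1, on the log2(TPM + 0.5) scale, were negative, -0.099 for other replication and -0.052 for other mitosis genes, beside -0.25 and 0.084 for the members. Mki67, Top2a, Cenpa, Cenpe, Kif11, Kif23, Bub1 and Ncapg were the mitosis genes with an interval above 1, while Cdc20, Plk1, Tpx2 and Ccna2 had one below 1, Cdc20 with a ratio of 0.541 (0.442 to 0.660).

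**Figure D4:**
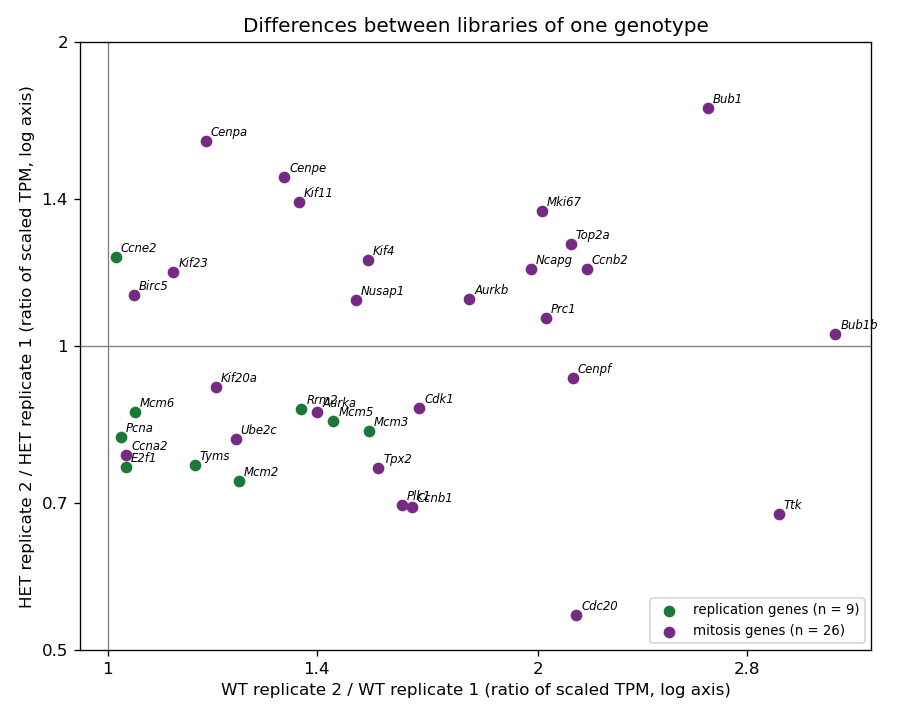
Ratio of replicate 2 to replicate 1 within WT (horizontal) and within HET (vertical) for each cell cycle gene, from scaled TPM on log axes; each point is 1 gene, green for replication and purple for mitosis. All 35 points lie right of 1, mitosis genes farther (median 1.62 against 1.15), and 8 of 9 replication genes lie below 1 on the vertical axis.

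Other genes of the same pathway, from wider lists, were read beside the members. Of 52 other mitosis genes 48 had a positive log2 fold change, with a median of 0.30 that was 0.089 against WT replicate 2 alone. In 28 the HET libraries both exceeded both WT libraries, beside 21.8% of all tested genes. WT replicate 1 was lowest in 47, beside 33.7% of all tested genes. In limma 0 were called, with 6 higher at an unadjusted p under 0.05 and 0 lower. Foxm1, the transcription factor that drives the late wave, was at 0.584 and 0.821 TPM in the WT pools, against 1.02 and 0.909 TPM in HET, and Mybl2, which encodes B-MYB, at 0.414 and 0.664 TPM and 0.731 and 0.691 TPM. Ndc80, of the outer kinetochore, was at 0.234 and 0.720 TPM in the WT pools, against 0.648 and 0.701 TPM in HET, with WT replicate 2 above both. Of 41 other replication genes 27 had a positive log2 fold change and 14 a negative one, with a median of 0.083 that was -0.0034 against WT replicate 2 alone, and 0 were called (3 higher and 1 lower at an unadjusted p under 0.05). In 14 of the 41 both HET libraries were above WT and in 5 both were below. Over all tested genes both were above in 21.8% and both below in 5171 of 22356. The remaining helicase subunits differed from each other: Mcm4 was at 4.17 and 6.36 TPM in the WT pools, against 7.23 and 6.72 TPM in HET, and Mcm7 at 6.03 and 6.51 TPM and 6.77 and 5.82 TPM. Tk1, the thymidine kinase gene, was at 3.71 and 3.58 TPM in the WT pools, against 2.93 and 3.76 TPM in HET.

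Lists of other cell cycle regulators and of inhibitors had median fold changes closer to that of all genes than the 35 members had. The first holds 23 genes for D-type cyclins, Ccne1, their kinases, Cdc25a, Myc, pocket proteins, other E2F factors and MuvB subunits. Of these, 15 had a positive log2 fold change, and the values ranged from -0.26 to 0.37. The median was 0.059 (0.029 against WT replicate 2 alone), with 0 called and 0 at an unadjusted p under 0.05 in limma. Ccnd1, a cyclin that couples growth signals to the cycle, was abundant at 148 and 152 TPM in the WT pools, against 168 and 144 TPM in HET. Ccnd2 was at 4.77 and 6.59 TPM and 6.58 and 7.81 TPM, their partner kinase gene Cdk4 at 65.9 and 61.3 TPM and 60.8 and 52.8 TPM, and the retinoblastoma gene Rb1 at 16.3 and 20.9 TPM and 22.1 and 20.6 TPM. Of 15 tested inhibitors of cyclin-dependent kinases and p53 targets, 11 had a positive log2 fold change, the median was 0.085 (0.14 against WT replicate 2 alone) and 0 were called, with 1 at an unadjusted p under 0.05. Cdkn1a, which encodes the p21 inhibitor, was at 14.8 and 7.13 TPM in the WT pools, against 27.4 and 8.94 TPM in HET, highest in HET replicate 1 and with overlapping genotypes. Cdkn1b, which encodes p27, was at 22.9 and 26.5 TPM in the WT pools, against 24.2 and 26.6 TPM in HET, and Trp53, the p53 gene, at 12.1 and 11.0 TPM and 11.996 and 11.4 TPM.

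**Figure D5:**
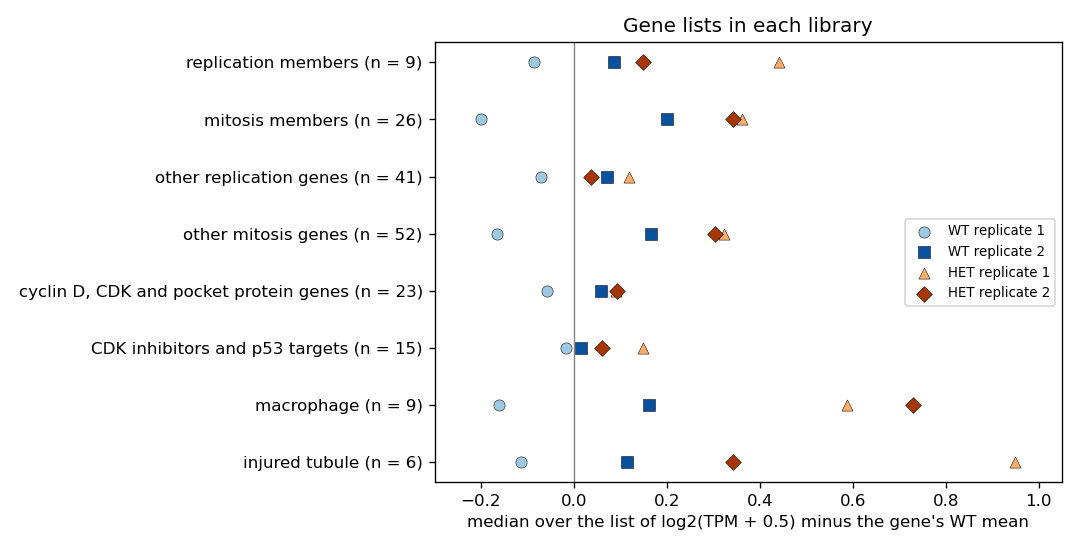
Median over each gene list of log2(TPM + 0.5) minus the gene's own WT mean, in each library; each point is 1 library and n is the number of tested genes. Mitosis lists place both HET libraries at 0.30 to 0.36 and WT replicate 1 lowest, while lists of other regulators and inhibitors stay between -0.058 and 0.15.

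Markers of other cells that can divide in kidney, and of injured tubule, also differed between the libraries. The summed level of 9 macrophage markers was 145 and 166 TPM in the WT pools, against 242 and 242 TPM in HET. In 8 of the 9 both HET libraries were above WT, beside 21.8% of all tested genes, and Csf1r was the exception. In limma 8 were higher at an unadjusted p under 0.05, beside 3.81% of all genes, and 0 were called. The 6 injured tubule markers summed to 932 and 1162 TPM in the WT pools, against 2243 and 1111 TPM in HET, most of it from Spp1. HET replicate 1 stood out in that sum, where Spp1 was at 2171 TPM. By gene, 4 of the 6 markers were highest in HET replicate 1 and 2 in HET replicate 2. HET replicate 1 was also highest in 8 of 9 replication genes, and in 25.45% of all tested genes. Beside 21.8% of all tested genes, both HET libraries were above WT in 4 of the 6 markers. Among them, Vcam1 was at 2.83 and 3.37 TPM in the WT pools, against 5.76 and 5.95 TPM in HET (unadjusted p = 0.00195 and adjusted p = 0.622 in limma), and Krt20 at 0.587 and 0.645 TPM, against 0.965 and 1.04 TPM. Havcr1, at 17.1 and 22.8 TPM and 58.2 and 24.1 TPM, and Lcn2, at 1.37 and 1.72 TPM and 6.57 and 2.19 TPM, were high mainly in HET replicate 1. Sox9 had a negative log2 fold change, -0.064, at 0.456 and 0.406 TPM in the WT pools, against 0.530 and 0.270 TPM in HET. Summed levels of 8 B cell markers were 39.4 and 105 TPM in the WT pools, against 21.2 and 120 TPM in HET, most of it from Jchain. By gene, 7 of the 8 were highest in HET replicate 2. Those of 9 T cell markers were 31.4 and 29.7 TPM and 12.3 and 32.6 TPM. Most of that sum came from Trac, at 27.5 and 25.7 TPM in the WT pools, against 8.52 and 20.2 TPM in HET. Trac was highest in WT replicate 1, while 8 of the 9 T cell markers were highest in HET replicate 2. Cd3e, a defining marker of T cells, was at 0.252 and 0.327 TPM in the WT pools, against 0.277 and 0.953 TPM in HET, highest in HET replicate 2. The 7 erythroid markers summed to 1196 and 2319 TPM in the WT pools, against 825 and 1867 TPM in HET. No marker of these 5 lists was at 0 in all libraries, and their part in the cell cycle values was not tested. Xist, like the mitosis genes, was lowest in WT replicate 1. In a fit with Xist level as covariate, the median log2 fold change of the 35 genes was 0.022 and 19 of 35 were positive. In that fit 0 of them had an unadjusted p under 0.05, beside 1.8% of all tested genes. With the summed level of 4 Y-linked genes as a covariate the median was 0.28 and 32 were positive. Such a fit leaves 1 residual degree of freedom and Xist was higher in both HET libraries, so the sex make-up of the pools and the genotype cannot be told apart. The 97 genes of the authors' deposited table, a selection from their own comparison of HET with WT, include 0 of the 35 cell cycle genes. They also include 0 of the wider replication, mitosis, regulator and inhibitor lists. With 97 genes listed, beside 22356 tested here, 0 of 35 is near the share over all genes and is no result about the members. Of the marker lists, 3 macrophage genes and 1 injured tubule gene are in the authors' deposited table.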

How the data were processed

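The authors deposited TPM for 54232 genes in 4 libraries, from alignments marked unique to build mm10, per the file headers; no source at hand names the aligner, the counter or the strand setting. A further table of the authors holds log2 fold changes, p-values, a score (the test statistic) and a mean signal of normalized counts for 97 genes, per the file headers; only membership was used. DESeq, DESeq2 and edgeR are named in the submitters' processing notes without versions. TPM times exon length fell on whole multiples of 1 unit per library, read as 1 sequencing read, for 100% of values (tolerance 0.001 reads). These reads served for depth, filtering, intervals, limma-voom and scaling by trimmed mean of M values (TMM; factors 0.901, 0.989, 1.05 and 1.07). The planned test was kept: limma 3.58.1 (R 4.3.3, statmod 1.5.0) on log2(scaled TPM + 0.5) with variance trend and robust moderation, over genes with at least 10 reads at median depth in 2 libraries and 15 in all, fitted across all genes. The smallest two-sided p of an exact permutation with 2 libraries per genotype is 0.333. The fit was tested on simulated data. Members and lists were chosen with earlier results of these data known. Named were all members and a fixed set of pathway genes. Cd3e, Csf1r, Havcr1, Jchain, Krt20, Lcn2, Slc34a1, Sox9, Spp1, Trac and Vcam1 were named after their values were seen. Sgo2a was matched by its older symbol, and Itgam, on 2 rows, was left out. Alternatives covered scaling, pseudocount, filter, limma-voom, moderation, a replicate block, sex-linked covariates and leaving out each library.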

Additional observations from a re-analysis of the deposited data

How the results depend on the processing

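In every alternative that kept all libraries, 0 of the members tested were called. In all 15 alternatives the medians of all members, replication and mitosis genes stayed above 0, and 488 of 514 single-gene fold changes kept their sign. Between 24 and 32 genes lay above WT in HET, or 17 of the 24 left by a filter of 1 TPM in 2 libraries. Over all tested genes this share was 21.8% in the reported fit and 29.9% against WT replicate 2 alone. Leaving out a library makes this order easier to meet, so the higher counts do not show stability. Shares for the other alternatives are not given here. With the TPM not scaled, the median of all genes shifted to 0.20, the replication median was 0.51, the replication minus mitosis median 0.0029 and Tyms 0.17. That difference was -0.25 with a pseudocount of 0.1 TPM and 0.00057 with 1 TPM. limma-voom gave medians of 0.54 for all members and 0.62 for mitosis genes, and a difference of -0.34; it works without the pseudocount of 0.5 TPM, which damps low genes. With Xist level as a covariate the medians were 0.022 (all), 0.022 (replication) and 0.013 (mitosis), the difference 0.0084. Then Mcm2 (-0.048), Mcm3 (-0.023), Pcna (-0.030), Top2a (-0.058), Ccnb2 (-0.43), Bub1 (-0.23), Bub1b (-0.042), Ttk (-0.34), Aurka (-0.052), Cenpe (-0.038), Cenpf (-0.099), Nusap1 (-0.11), Prc1 (-0.17), Cdc20 (-0.34) and Ncapg (-0.48) were negative. With Y-linked level as a covariate Pcna (-0.13) and Ttk (-0.044) were. Genes called over all genes, 2 in the reported fit, were 0 with no filter (1945 at an unadjusted p under 0.05), limma-voom (1771), the replicate block (1766) or Xist as a covariate (402), 1 without robust moderation and 31 with the Y-linked covariate. Leaving out 1 library gave 0 to 107 called genes (0 without WT replicate 1, with 555 at an unadjusted p under 0.05), a replication median of 0.15 to 0.44, and a difference of -0.19 to 0.079. Fold changes then ranged from -0.0088 to 0.47 (Bub1), -0.10 to 0.33 (Ttk), -0.14 to 0.55 (Ncapg), -0.21 to 0.12 (Tyms), -0.12 to 0.16 (Pcna), -0.10 to 0.15 (Ccne2) and -0.00097 to 0.32 (Cenpe). The lone library left is assumed to vary like the others. Beyond what is stated, the cause of these moves was not tested. Library numbers are shared between genotypes by label alone; deviations of same-numbered libraries correlated at 0.12 over genes, and with the replicate block 0 members were called and the median stayed 0.32. Depth limits Ccnb1, Ttk, Bub1 and Bub1b, with under 30 reads in WT replicate 1.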

Other observations

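Kif20b, a kinesin gene of the wider mitosis list on chromosome 19, went against that list. It was at 13.2 and 12.6 TPM in the WT pools, against 3.88 and 10.7 TPM in HET, with a log2 fold change of -0.93 (limma adjusted p = 0.622). HET replicate 1 was the low library, as it was for Ddx3y. Kif20b, Gtse1 and Phlda3 were singled out after their values were seen.

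Gtse1, a p53-binding protein gene of the G2 phase, and Phlda3, a p53 target, had the smallest unadjusted p among the wider mitosis and inhibitor lists, 0.0103 and 0.00838. Gtse1 was at 0.475 and 0.510 TPM in the WT pools, against 1.37 and 0.938 TPM in HET. Phlda3 was at 7.92 and 10.7 TPM in the WT pools, against 18.0 and 13.8 TPM in HET. In both, HET replicate 1 was highest, and neither passed the adjustment over all genes (limma adjusted p = 0.622 for each).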
